A study of Mus musculus with 8 samples.

Results

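The cyclooxygenase and prostaglandin pathway genes described here are 10 genes of prostaglandin synthesis, breakdown and sensing: Pla2g4a, Ptgs1, Ptgs2, Ptges, Ptges2, Ptges3, Ptgis, Ptgds, Hpgd and Ptger4. They were chosen by name, and every probe that the RefSeq gene table assigned to one of them was taken, which gave 14 probes for 10 of the 22911 genes named on the array. The study used TEC100.4, an immortalized mouse thymic epithelial cell line of cortical origin, in which doxycycline switches on a mutant β or δ isoform of TFII-I. This transcription factor is the product of Gtf2i. RNA was hybridised to one-colour Agilent expression arrays. The 4 groups held 2 arrays each: TFII-I-δmt cells with doxycycline for 24 h, TFII-I-δmt cells without it, TFII-I-βmt cells with doxycycline for 24 h, and TFII-I-βmt cells without it. All 4 groups therefore carry an inducible mutant, and a treated line without one was not analysed here. For the untreated samples the genotype label and the title disagree, since the label gives the protein as wild type and the title gives a mutant line left without doxycycline. Groups follow the titles. The labels name neither the mutation nor the promoter, and say neither whether a line is 1 clone nor whether replicate arrays stem from different cultures. The p-values therefore measure only the spread between these arrays, which may be technical.

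Prostaglandins are lipid signals made from arachidonic acid. Cytosolic phospholipase A2 frees the fatty acid from membranes, the cyclooxygenases turn it into an unstable endoperoxide, and terminal synthases convert that into prostaglandin E2, prostacyclin or prostaglandin D2, which act on G protein-coupled receptors until they are taken up and oxidised. Ptgs1 is known as the constitutive cyclooxygenase and Ptgs2 as the one induced by cytokines and growth factors, and prostaglandin E2 is known to act on developing thymocytes.

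TFII-I is known to bind initiator elements and E-boxes, so the 250 bases before the start of the Ptgs2 and Pla2g4a genes are shown with each match to the E-box letters CANNTG in capitals. These genes were picked for display after their values had been seen, as members lower in the δ line. Sequences are from RefSeq, build GRCm38.p6, written 5′ to 3′ on the gene's strand. The Ptgs2 window is chr1:150099781-150100030 on the plus strand, and the Pla2g4a window is chr1:149961291-149961540 on the minus strand, the first of the 2 windows the table holds for that gene.
Ptgs2: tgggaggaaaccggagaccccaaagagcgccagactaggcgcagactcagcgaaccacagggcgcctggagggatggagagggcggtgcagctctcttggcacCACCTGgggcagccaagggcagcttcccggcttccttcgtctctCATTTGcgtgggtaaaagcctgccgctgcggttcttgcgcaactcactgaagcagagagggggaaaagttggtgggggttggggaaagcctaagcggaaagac
Pla2g4a: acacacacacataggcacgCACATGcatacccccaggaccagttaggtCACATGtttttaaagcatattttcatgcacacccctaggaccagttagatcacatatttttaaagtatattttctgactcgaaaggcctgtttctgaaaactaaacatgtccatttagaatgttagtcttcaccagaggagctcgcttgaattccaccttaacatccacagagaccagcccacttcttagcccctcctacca
Each window held 2 matches, in Ptgs2 at 147 and 103 bases before the start and in Pla2g4a at 231 and 202. On both strands, CANNTG matched in 66.2% of the 32851 windows of this length and in 7 of the 9 members with a window, so most promoters hold one. Its CACGTG form, which lies within CANNTG, matched in 6.02% of windows and among the members in the Ptges2 window. The Ptgs2 window also held a GC box, GGGCGG, at 170 bases (32.7% of windows, 5 of 9 members). The core of the cyclic AMP response element, TGACG, was in 17.8% of windows, the AP-1 site TGANTCA in 6.75% and the TATA box TATAAA in 12.4%, and none of these had a match in either printed window. A match is a description of letters and no sign of binding.

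All levels below are log2 of the processed spot intensity minus the array's 75th percentile, so a level is comparable between arrays for 1 probe and not between probes. A gene was represented by its brightest kept probe and tested with limma over all 8 arrays, with p-values adjusted by Benjamini-Hochberg over 19005 genes and a threshold of 0.05. The number of probes well above background was 43424 to 45156 on treated arrays and 39578 to 40759 on untreated arrays, and arrays of a group correlated at 0.993 to 0.997 across genes. A region of the untreated δ replicate 1 array, 148 of 1008 tiles of 8 by 8 spots, deviated from the other arrays, the lowest tile by -6.33 log2 units, against 1 to 8 tiles on the other arrays. Spots in such tiles were treated as missing on that array. The brightest of 3 Gtf2i probes did not pass the test for doxycycline in either line (δ line 0.13 ± 0.11, adjusted p = 0.58; β line 0.11 ± 0.11, adjusted p = 0.64; log2 ± SE), while a dimmer one was 1.32 ± 0.18 higher in treated than in untreated β cells (adjusted p = 0.0561 over single probes). The brightest probe was higher in the δ line than in the β line, by 0.66 ± 0.11 with doxycycline and 0.63 ± 0.11 without (adjusted p = 0.0103 and 0.0125). The middle probe was also higher, by 0.52 ± 0.10 and 0.57 ± 0.10 (adjusted p = 0.0253 and 0.0182 over single probes). The dimmest, the one higher in treated β cells, gave -0.63 ± 0.18 with doxycycline and 0.51 ± 0.18 without (adjusted p = 0.0725 and 0.141). Whether these probes match the induced construct was not tested. Of 10 markers of cortical thymic epithelium, 5 were well above background on all 8 arrays (Prss16, Foxn1, Ctsl, Krt8 and Krt18), Epcam was so on 1 array, and Psmb11 and Cd83 on none. Of 8 fibroblast markers, 7 were well above background on all arrays. Of 11 leukocyte markers 7 were, and Ptprc, Cd3g and Adgre1 were on none. In the titles' array position codes all treated arrays share 1 index and all untreated arrays another, and each line has its own columns, so position cannot be told apart from treatment or line.

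No prostaglandin gene passed the test for doxycycline in either line. Of the 8 members tested, 0 passed in the δ line, where 0.321% of all genes did, and 0 in the β line, where 1.9% did, and at an unadjusted p under 0.05 the count was also 0 in each. The members' log2 fold changes ran between -0.10 and 0.26 in the δ line and between -0.24 and 0.30 in the β line. Their medians were 0.15 in the δ line and 0.06 in the β line, beside 0.04 and 0.03 for all genes. On the brightest probes, the 95% intervals of single members reached at most -0.42 and 0.57 in the δ line. In the β line they reached -0.50 and 0.61. Changes of that size or smaller may have gone undetected. Some dimmer probes reached further, none past the threshold over single probes. In the δ line the middle Ptges probe gave 0.57 (95% interval 0.12 to 1.02, adjusted p = 0.311) and the dimmer Ptger4 probe -0.47 (-0.84 to -0.09, adjusted p = 0.315). In the β line the dimmest Ptges probe gave -0.33 (-0.59 to -0.06, adjusted p = 0.198). Treated and untreated arrays did not overlap for 7 of 8 members in the δ line and 6 of 8 in the β line, but this held for 62.5% and 47.4% of all genes. The difference of the doxycycline effect between the lines passed for 0 of 8 members and 0.0158% of all genes, and 0 members had an unadjusted p under 0.05.

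Ptgs2 was lower in the δ line than in the β line with and without doxycycline, by 2.98-fold and 3.51-fold, and was the member with the widest spread over the groups. With doxycycline, 2 of 8 members passed, both lower in the δ line (Ptgs2 and Ptges3), where 19.3% of all genes passed, 7.29% as lower and 12% as higher. Without doxycycline, 3 of 8 members passed, all lower in the δ line (Ptgs2, Ptger4 and Pla2g4a), where 14.8% of all genes passed, 6.68% as lower and 8.08% as higher. The members' median was -0.18 with doxycycline and -0.20 without, against 0.00 for all genes in each. Groups did not overlap for 6 of 8 members with doxycycline and 7 of 8 without, beside 68.5% and 58.3% of all genes. In bulk RNA, fewer cells that express a gene and less of its RNA per cell cannot be told apart. The lines share no arrays, but treated and untreated arrays of 1 line serve both doxycycline and line comparisons.

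**Figure D1:**
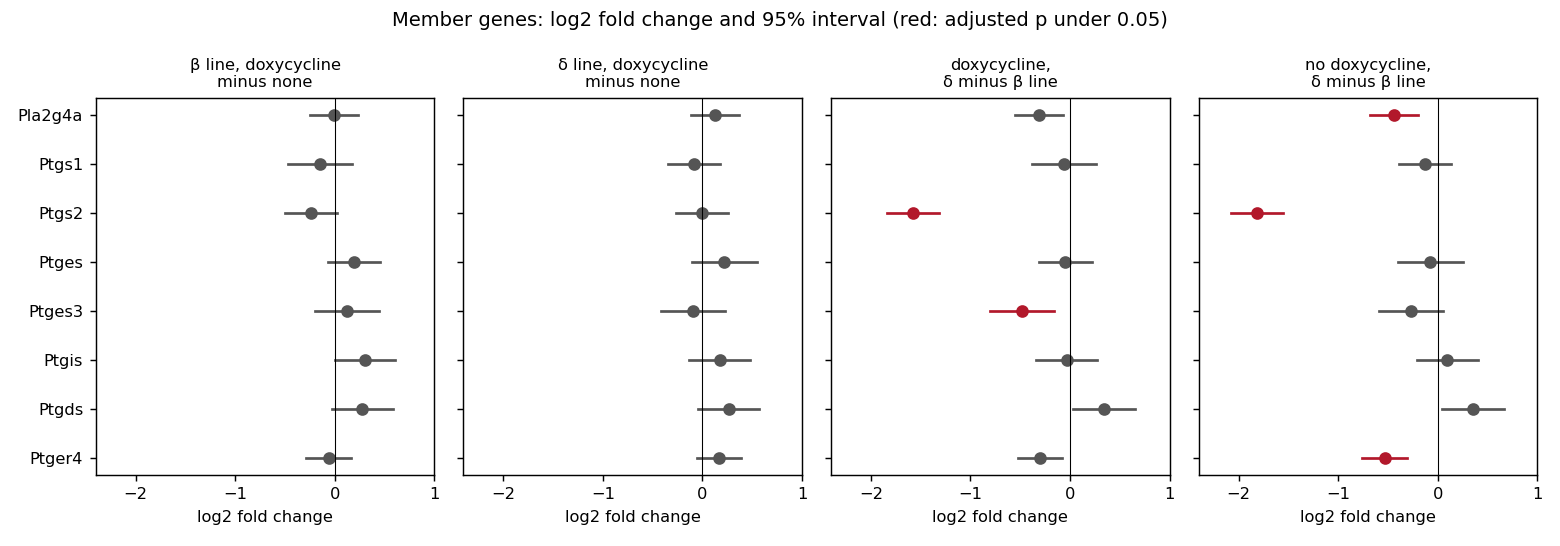
Log2 fold change (points) and 95% interval (lines) of the 8 tested genes in 4 comparisons, treated minus untreated in the β and δ lines and δ minus β with and without doxycycline. Red marks an adjusted p under 0.05: none in the doxycycline comparisons, and between the lines Ptgs2 in both, with Ptges3 in treated cells and Ptger4 and Pla2g4a in untreated cells.

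Pla2g4a encodes cytosolic phospholipase A2, which releases arachidonic acid and so begins the pathway. Its level was 1.44 and 1.41 in treated δ cells, 1.25 and 1.35 in untreated δ cells, 1.67 and 1.80 in treated β cells, and 1.67 and 1.82 in untreated β cells. Every δ array lay below every β array. The difference was -0.44 ± 0.10 without doxycycline (log2 ± SE, 1.36-fold lower, adjusted p = 0.0307) and -0.31 ± 0.10 with it, which missed the threshold (adjusted p = 0.0779). In the limma fit of single probes the untreated difference did not pass either (adjusted p = 0.0583). In the untreated comparison 12 of 19 other settings kept the call, and it was lost with median centring, in a fit of the compared arrays alone, without either treated δ array, without either untreated δ array and without untreated β replicate 2 (log2 fold changes over all settings -0.51 to -0.35).

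Ptgs2, the inducible cyclooxygenase, is measured by 1 probe, well above background on all 8 arrays. Its level was -3.07 and -3.07 in treated δ cells, -2.96 and -3.17 in untreated δ cells, -1.45 and -1.54 in treated β cells, and -1.32 and -1.19 in untreated β cells. The arrays fell into a low set of 4 from the δ line and a high set of 4 from the β line, with a gap wider than the spread within any group. Group means were -3.07 ± 0.0042 in treated δ cells, -3.07 ± 0.15 in untreated δ cells, -1.496 ± 0.066 in treated β cells and -1.26 ± 0.088 in untreated β cells (SD, n = 2 each). With doxycycline the δ line was lower by a log2 fold change of -1.58 ± 0.11 (2.98-fold, 95% interval 2.49 to 3.57, adjusted p = 0.00023). Without it the value was -1.81 ± 0.11 (3.51-fold, 95% interval 2.94 to 4.21, adjusted p = 0.000119). Both calls held in 19 of 19 other settings, with values of -1.62 to -1.30 and of -1.92 to -1.51. In the order of the levels the treated and untreated δ groups overlapped (difference -0.0028 ± 0.11). Treated β arrays lay below untreated β arrays without overlap, but this difference did not pass (-0.24 ± 0.11, adjusted p = 0.269).

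Ptgs1, the constitutive cyclooxygenase, was close in all groups. It measured 5.55 and 5.51 in treated δ cells, 5.58 and 5.65 in untreated δ cells, 5.59 in treated β cells, whose replicate 1 spot lay in a deviant tile, and 5.65 and 5.83 in untreated β cells. The line difference was -0.06 ± 0.13 with doxycycline and -0.13 ± 0.11 without (adjusted p = 0.778 and 0.489), with 95% intervals of -0.38 to 0.26 and -0.39 to 0.14. Whether the line effect differs between Ptgs1 and Ptgs2 was not tested.

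**Figure D2:**
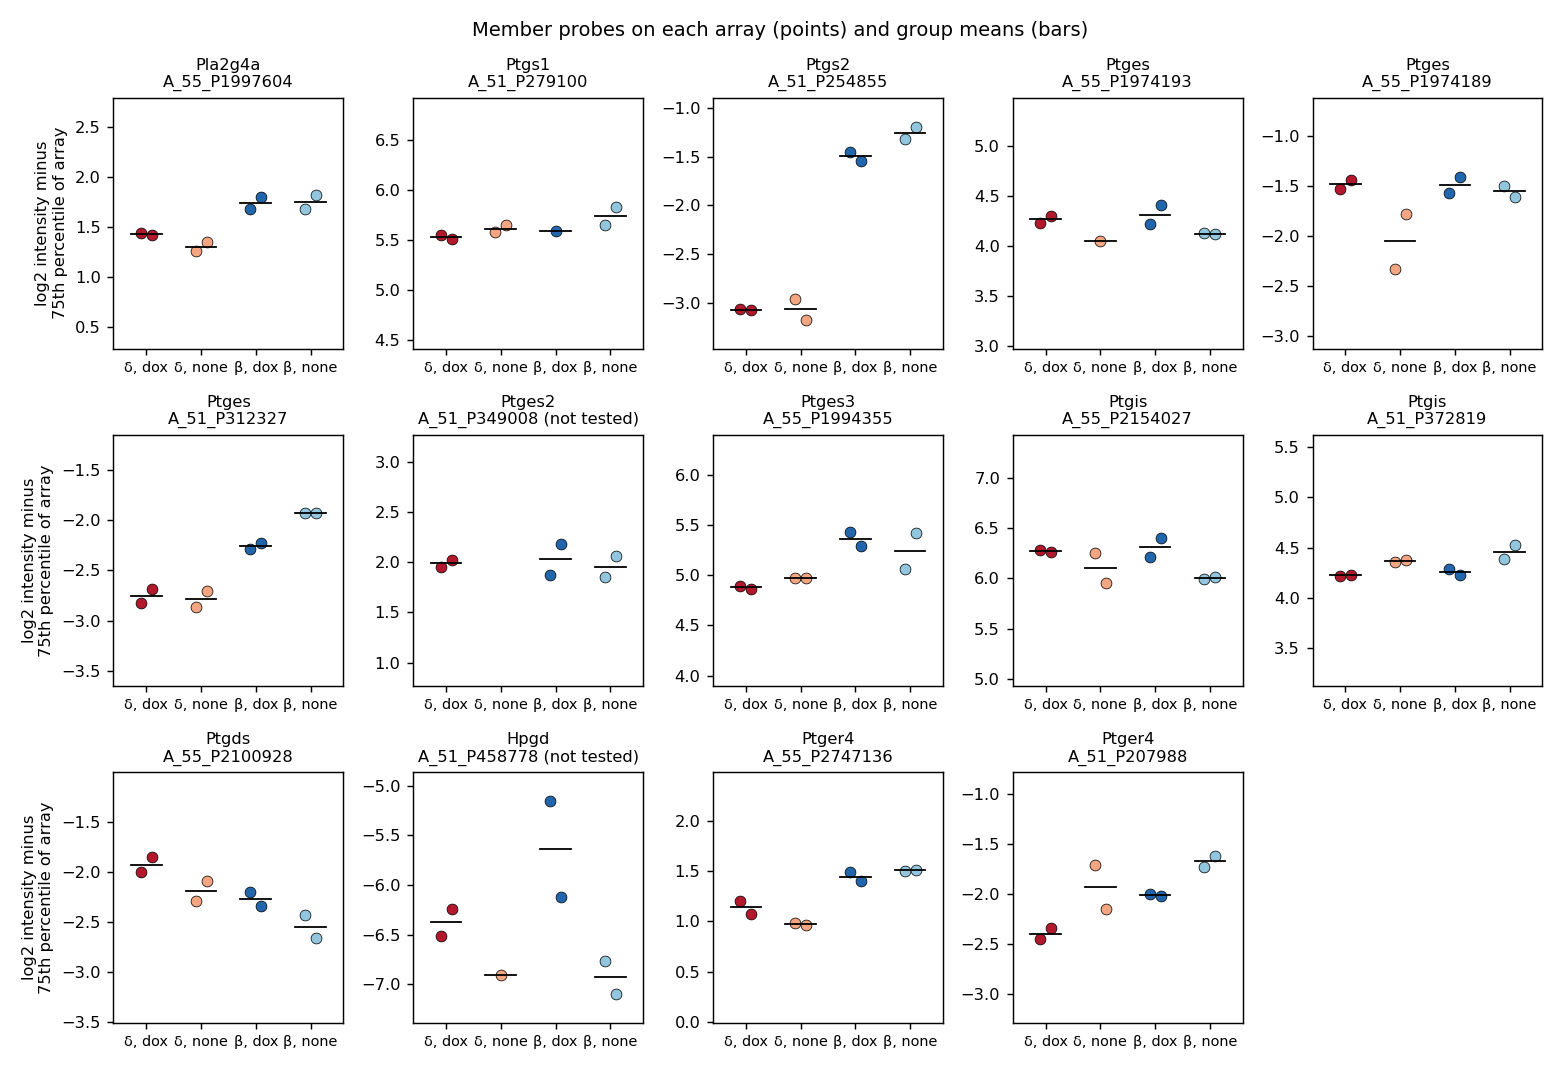
Level of the 14 probes on each array, as log2 intensity minus the array's 75th percentile; points are arrays, bars are group means, and all panels span at least 2.5 log2 units around their own centre. The 4 δ arrays of Ptgs2 sit near -3 and its 4 β arrays between -1.54 and -1.19, while most other panels are nearly flat; Ptges2 and Hpgd were not tested.

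The terminal synthases varied less. Ptges encodes the microsomal prostaglandin E synthase that is known to be induced together with Ptgs2. Its brightest probe measured 4.23 and 4.31 in treated δ cells, 4.05 in untreated δ cells, where replicate 1 lay in the deviant region, 4.22 and 4.41 in treated β cells, and 4.13 and 4.12 in untreated β cells. The lines overlapped in treated cells, and the line difference was -0.05 ± 0.11 with doxycycline and -0.07 ± 0.13 without (adjusted p = 0.798 and 0.76). The dimmest of the 3 Ptges probes gave another result. It measured -2.82 and -2.68 in treated δ cells, -2.87 and -2.71 in untreated δ cells, -2.29 and -2.22 in treated β cells, and -1.93 and -1.93 in untreated β cells. On this probe the δ line was lower by -0.50 ± 0.11 with doxycycline (adjusted p = 0.039 over single probes) and -0.86 ± 0.11 without (adjusted p = 0.0058), with no overlap, in tests of 44257 probes of which 9.86% and 8.45% passed. When the probes of a gene with values on all arrays were averaged, which leaves out the brightest Ptges probe, Ptges passed in the untreated line comparison (-0.68, adjusted p = 0.0191). Without untreated δ replicate 2 a dimmer probe stood for the gene, and Ptges then passed in the untreated line comparison (-0.78, adjusted p = 0.0153) and with doxycycline in the δ line (0.85, adjusted p = 0.0279). The middle probe gave a line difference of 0.01 ± 0.19 with doxycycline and -0.50 ± 0.19 without (adjusted p = 0.98 and 0.169 over single probes). Which transcripts the 3 probes detect was not tested.

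Ptges3, a cytosolic prostaglandin E synthase also known as the Hsp90 co-chaperone p23, measured 4.89 and 4.87 in treated δ cells, 4.98 and 4.98 in untreated δ cells, 5.43 and 5.29 in treated β cells, and 5.06 and 5.42 in untreated β cells. All δ arrays lay below all β arrays. It passed with doxycycline (-0.48 ± 0.13, 1.40-fold lower, adjusted p = 0.0495) and not without (-0.26 ± 0.13, adjusted p = 0.244). In the limma fit of single probes it did not pass with doxycycline (adjusted p = 0.0827). The call lay at the threshold: 8 of 19 other settings kept it, and it was lost without any 1 of the treated δ, untreated δ or treated β arrays.

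Ptgis, the prostacyclin synthase, had 2 probes that moved in opposite directions with doxycycline, neither past the threshold. The brighter measured 6.29 and 6.27 in treated δ cells, 6.26 and 5.95 in untreated δ cells, 6.22 and 6.41 in treated β cells, and 5.998 and 6.02 in untreated β cells. Its treated minus untreated difference was 0.17 ± 0.13 in the δ line and 0.30 ± 0.13 in the β line (adjusted p = 0.52 and 0.238). The dimmer gave -0.14 ± 0.10 and -0.21 ± 0.10 (adjusted p = 0.564 and 0.338 over single probes). Neither probe separated the lines in treated cells.

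Ptgds, the lipocalin-type prostaglandin D synthase, was the only member with higher levels in the δ line in both line comparisons, without passing. It measured -2.01 and -1.85 in treated δ cells, -2.29 and -2.09 in untreated δ cells, -2.20 and -2.34 in treated β cells, and -2.43 and -2.66 in untreated β cells. The δ line exceeded the β line without overlap, by 0.34 ± 0.13 with doxycycline and 0.36 ± 0.13 without (adjusted p = 0.111 and 0.123). Ptges2, a further prostaglandin E synthase, had no usable spot in untreated δ cells because its tile deviated on both arrays, and it was not tested. Its other arrays lay at 1.95 and 2.03 in treated δ cells, 1.88 and 2.19 in treated β cells, and 1.85 and 2.06 in untreated β cells, ranges that overlapped.

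Hpgd, the dehydrogenase that inactivates prostaglandins, was well above background on 1 of 8 arrays and was not tested. Ptger4, the EP4 receptor for prostaglandin E2, measured 1.21 and 1.08 in treated δ cells, 0.99 and 0.96 in untreated δ cells, 1.49 and 1.40 in treated β cells, and 1.505 and 1.51 in untreated β cells. All δ arrays lay below all β arrays. The difference was -0.53 ± 0.09 without doxycycline (1.45-fold lower, adjusted p = 0.0113) and -0.30 ± 0.09 with it (adjusted p = 0.0649). In the untreated comparison 17 of 19 other settings kept the call, and it was lost without untreated δ replicate 1 and in a fit of the compared arrays alone. A second, dimmer Ptger4 probe did not pass, at -0.39 ± 0.16 with doxycycline and -0.26 ± 0.16 without (adjusted p = 0.169 and 0.375 over single probes). With doxycycline that probe was lower, by -0.47 ± 0.16 in the δ line and -0.34 ± 0.16 in the β line, where the brighter one gave 0.17 ± 0.09 and -0.06 ± 0.09, and none of the 4 values passed. Over the 12 member probes kept, 5 of 60 tests of a probe in a comparison passed, all between the lines. Between treated lines these were Ptgs2 and the dimmest Ptges probe, where 9.86% of all probes passed. Between untreated lines they were the same probes and the brighter Ptger4 probe, where 8.45% passed. For the effect of doxycycline 0.0723% of all probes passed in the δ line and 0.188% in the β line, and 0.00678% for the difference.

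Other genes of the pathway were taken from 6 lists holding 67 tested genes. A total of 26 genes passed in some comparison, 40 times over all comparisons. These totals pool the comparisons, so they cannot be set against the share of all genes that passed in a single one. That share was 19.3% between treated lines, 14.8% between untreated lines, 1.9% with doxycycline in the β line and 0.321% in the δ line. Counts for each list in single comparisons are given below. Of these 40 calls 12, those of Cbr3, Akr1c18, Ptgr1, Cysltr1, Hbegf and Fosl1 in both line comparisons, held in every other setting that gave a value. Between treated lines, the calls of Cbr2, Gstm5, Ptgir, Tbxa2r, Ptgfrn, Ptgr2, Hsd17b11, Pla2g5, Pla2g2e, Alox12e and Jun were each lost without any 1 of the 4 treated arrays. None passed in the δ line with doxycycline or for the difference of the doxycycline effect.

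Among other genes of prostanoid synthesis, 8 of 11 were tested and 2 were higher and 2 lower in the δ line in each line comparison (medians -0.03 with doxycycline and -0.08 without). Cbr3, a carbonyl reductase, measured -5.07 and -4.56 in treated δ cells, -4.89 and -5.07 in untreated δ cells, -1.95 and -1.77 in treated β cells, and -2.10 and -2.09 in untreated β cells. Its δ arrays lay far below its β arrays, a log2 fold change of -2.96 ± 0.18 with doxycycline and -2.89 ± 0.18 without (adjusted p = 0.000119 and 0.000125); the probe was well above background on 1 of 2 untreated δ arrays. Akr1c18, known in mice as the 20α-hydroxysteroid dehydrogenase with prostaglandin F synthase activity, was lower by -1.34 ± 0.17 and -1.57 ± 0.17 (adjusted p = 0.00309 and 0.00155). Cbr2 and Gstm5 were higher by 0.41 to 0.51. The Cbr3 values shrank to -1.96 and -1.87 with normexp background correction, still past the threshold.

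Apart from Ptger4, which was lower in untreated δ cells and is not in this list, 9 prostanoid receptor genes were listed and 6 tested. Without doxycycline 5 were higher and 0 lower in the δ line, beside 8.08% and 6.68% of all genes, and with doxycycline 2 were higher (Ptgir and Tbxa2r) and 1 lower (Ptgfrn, a protein known to bind the prostaglandin F receptor and inhibit it). The medians were 0.15 with doxycycline and 0.47 without. The 5 were Ptger1, Ptger3, Ptgdr2, Ptgir and Tbxa2r, at 0.39 to 0.74. Ptgir, the prostacyclin receptor, measured -0.08 and -0.19 in treated δ cells, 0.08 and 0.10 in untreated δ cells, -0.78 and -0.67 in treated β cells, and -0.60 and -0.31 in untreated β cells, a difference of 0.60 ± 0.12 with and 0.54 ± 0.12 without doxycycline (adjusted p = 0.0182 and 0.0282). In untreated cells the calls of Ptger1, Ptgdr2, Ptgir, Ptger3 and Tbxa2r were kept in 9, 8, 12, 16 and 18 of 19 other settings, those of Ptger1, Ptgdr2 and Ptgir being lost without either untreated δ array and that of Ptger3 without either untreated β array.

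In transport and breakdown, 6 of 7 genes were tested, with 3 higher and 1 lower in the δ line in treated cells and 1 higher and 1 lower in untreated cells. Ptgr1, the reductase that acts on oxidised prostaglandins and leukotriene B4, measured 1.83 and 1.84 in treated δ cells, 1.25 and 1.40 in untreated δ cells, 0.41 and 0.66 in treated β cells, and 0.33 and 0.35 in untreated β cells. It was higher by 1.30 ± 0.12 with doxycycline and 0.98 ± 0.12 without (adjusted p = 0.000698 and 0.0021), with no overlap. Slco2a1, the prostaglandin uptake transporter, was lower by -0.59 ± 0.09 and -0.50 ± 0.09 (adjusted p = 0.00525 and 0.0103), calls lost without either treated δ array and without untreated δ replicate 1, and Ptgr2 and Hsd17b11 passed as higher in treated cells, by 0.51 and 0.43, calls kept in 8 and 12 of 19 other settings. A change of the line effect between treated and untreated cells is the same contrast as the difference of the doxycycline effect between lines. It passed for 0 of the 6 genes and for 0.0158% of all genes.

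Of 20 genes of arachidonate release and re-esterification 17 were tested. In treated cells Pla2g5 and Pla2g2e, secreted phospholipases, were lower in the δ line (-0.50 ± 0.12 and -0.44 ± 0.12), and in untreated cells Mboat7, which returns arachidonate to phosphatidylinositol, was higher (0.48 ± 0.12). These calls were kept in 12, 9 and 8 of 19 other settings, and that of Mboat7 was lost without either untreated δ array. Of 14 genes of the lipoxygenase branch 12 were tested, with 3 lower in treated cells and 1 lower in untreated cells. Cysltr1, a cysteinyl leukotriene receptor, measured -2.91 and -3.12 in treated δ cells, -2.82 and -2.89 in untreated δ cells, -2.09 and -1.98 in treated β cells, and -2.00 and -1.69 in untreated β cells. Its difference was -0.98 ± 0.14 with and -1.01 ± 0.14 without doxycycline (adjusted p = 0.0043 and 0.00376). Ltc4s, the leukotriene C4 synthase, and Alox12e were lower in treated cells, but treated β replicate 2 of Ltc4s stood apart at 2.10, against 0.93 in replicate 1, and without that array the Ltc4s difference was -0.60 (adjusted p = 0.0335) and without replicate 1 it was -1.77, where the value with both was -1.19 ± 0.33 (adjusted p = 0.0493). The calls of Ltc4s and Alox12e were each kept in 8 of 19 other settings, and that of Ltc4s was lost without any 1 of the other arrays.

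**Figure D3:**
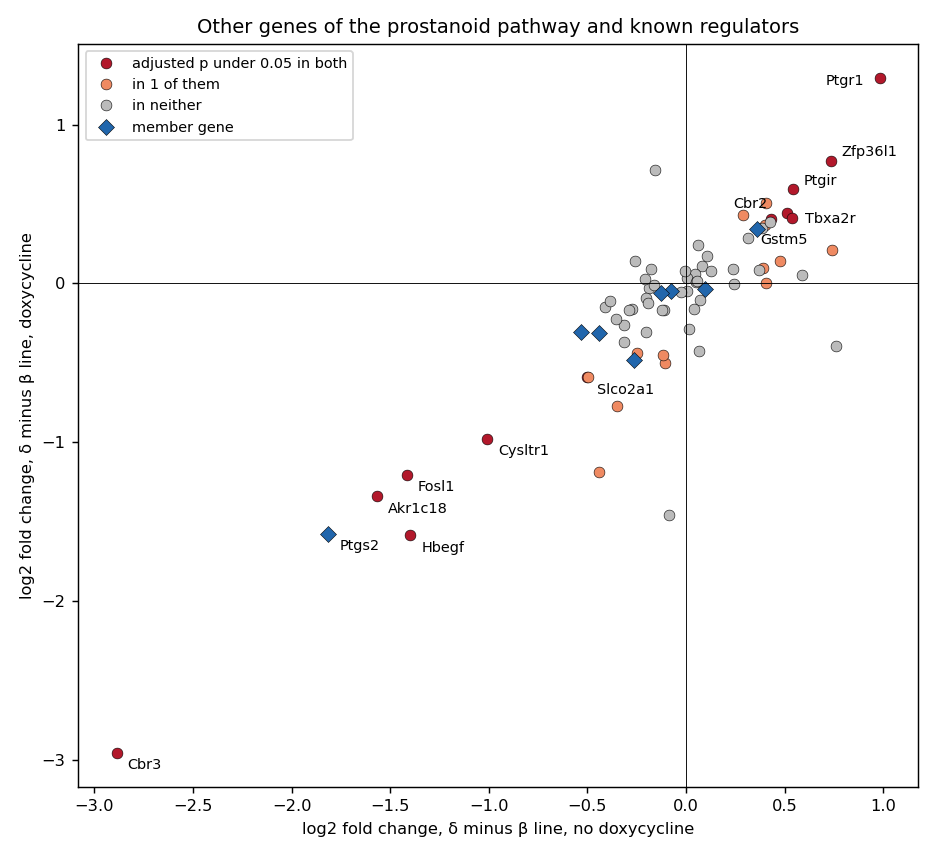
Log2 fold change of the δ minus the β line without doxycycline (x axis) and with it (y axis) for the listed pathway genes and regulators (circles, coloured by whether the adjusted p was under 0.05) and the tested prostaglandin genes (diamonds). Cbr3, Akr1c18, Fosl1, Hbegf, Cysltr1 and Ptgs2 lie at the lower left and Ptgr1 at the upper right; Zfp36l1, drawn as higher in both, turned lower under some other settings.

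Of 20 genes known to regulate Ptgs2, 18 were tested, with 1 higher and 3 lower in the δ line in treated cells and 2 higher and 2 lower in untreated cells (medians 0.02 and 0.03). Fosl1, an AP-1 subunit, measured -1.69 and -1.70 in treated δ cells, -1.49 and -1.21 in untreated δ cells, -0.54 and -0.44 in treated β cells, and -0.01 and 0.14 in untreated β cells. It was lower by -1.21 ± 0.12 with doxycycline and -1.42 ± 0.12 without (adjusted p = 0.00124 and 0.00056). Hbegf, a ligand of the EGF receptor, was lower by -1.59 ± 0.19 and -1.40 ± 0.19 (adjusted p = 0.00249 and 0.00412), with δ arrays between 0.41 and 0.75 and β arrays between 1.76 and 2.26. Jun was lower in treated cells (-0.77 ± 0.17) and Il1r1, the interleukin-1 receptor, higher in untreated cells (0.40 ± 0.10), calls kept in 14 and 9 of 19 other settings, the Il1r1 call being lost without either untreated δ array. Zfp36l1, which promotes decay of AU-rich mRNAs, was higher by 0.77 ± 0.14 and 0.73 ± 0.14, but turned to between -0.58 and -0.48 and between -0.13 and -0.09 in the settings where another of its probes was the brightest.

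With doxycycline in the β line 3 listed genes passed. Fos was higher (0.97 ± 0.14, adjusted p = 0.0358), Pla2g5 was higher (0.89 ± 0.12, adjusted p = 0.0322) and Tbxa2r, the thromboxane receptor, was lower (-0.50 ± 0.09, adjusted p = 0.0466). Fos measured 0.30 and 0.33 in treated β cells, against -0.67 and -0.64 in untreated β cells. In the δ line the same genes gave 0.94 ± 0.14, 0.50 ± 0.12 and -0.62 ± 0.09, none past the threshold (adjusted p = 0.0584, 0.144 and 0.0525), and the difference between lines passed for none (adjusted p = 0.963, 0.535 and 0.723). The 3 calls were kept in 10, 10 and 6 of 20 other settings, and each was lost without any 1 array of the β line. Each was also lost without either treated δ array, in a fit of the compared arrays alone and with the array column as a block.

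Markers of other cell types gave mixed values between the lines. Kdr, an endothelial receptor, was higher in the δ line (1.54 with and 1.83 without doxycycline) and carried most of the sum of 4 endothelial markers, while Pecam1 (-0.09 and -0.43), Cdh5 and Tek did not pass. That summed linear level, relative to the array's 75th percentile, was 5.47 to 5.63 in treated δ cells, 3.65 to 3.73 in untreated δ cells, 2.20 to 2.41 in treated β cells and 1.48 to 1.89 in untreated β cells. Of the mast cell markers Cma1, a mast cell protease, was lower (-1.32 and -1.27) and carried most of the sum. Tpsb2 (-0.20 and -0.13) and Kit (0.30 and -1.41, well above background on 3 arrays) did not pass. Cpa3, on no array, was left out of the sum, which was 2.45 to 2.48, 2.97 to 3.17, 5.06 to 5.42 and 6.49 to 6.56 in the same order of groups. A sum leaves out genes with a missing array. For cortical markers without Ly75, Foxn1 and Cd83 it was 72.5 to 74.3, 56.8 to 62.0, 81.0 to 90.7 and 78.4 to 90.4. Ctsl carried most of this sum and did not pass (0.02 and -0.25). Krt8 was lower by -2.11 and -1.91, and Prss16 by -0.86 and -1.26 (adjusted p = 0.0367 and 0.0107). Krt18 passed as lower without doxycycline only (-0.78, adjusted p = 0.00245). Ackr4, Ly75 and Foxn1 passed in neither comparison. For medullary markers without Krt5 and Krt14 the sum was 0.361 to 0.391, 0.297 to 0.363, 0.459 to 0.525 and 0.320 to 0.328. Cldn3 and Fezf2 were on no array, while Krt14 itself was lower by -3.67 and -3.83 (adjusted p = 7.1e-05 and 0.000119). For fibroblast markers without Thy1 the sum was 531 to 536, 502 to 510, 513 to 585 and 469 to 492, and Thy1 was lower by -2.15 and -2.08. Pdgfrb was higher by 2.26 with doxycycline and 2.64 without (adjusted p = 6.2e-05 and 3.1e-05), and Col1a2 by 0.44 and 0.58 (adjusted p = 0.0287 and 0.0123). Col1a1 passed as lower with doxycycline only (-0.58, adjusted p = 0.0121). Col3a1, Pdgfra, Dcn and Lum passed in neither comparison. For leukocyte markers without Csf1r the sum was 28.5 to 30.4, 28.5 to 31.8, 37.8 to 45.5 and 31.5 to 36.2. Treated lines overlapped in the fibroblast sum and untreated lines in the leukocyte and medullary sums. The part of these in the line differences of Ptgs2 and the other genes was not tested.

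Among 311 genes that varied at least as much as Ptgs2 over the group means and had all 8 arrays, the 4 most alike in pattern, by Pearson correlation over the 8 arrays, were Hephl1 (0.995), Ripk3 (0.994), Sod3 (0.994) and Ifi27l2b (0.994). All 4 were lower in the δ line, by log2 fold changes of -2.30, -3.53, -1.92 and -3.35 with doxycycline and -2.46, -3.70, -1.88 and -3.39 without. The correlation describes 2 lines with 4 arrays each, and 90 of the 311 genes exceeded 0.95.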

How the data were processed

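Per the file headers, the authors scanned 8 one-colour Agilent arrays with Feature Extraction 11.5.1.1 and deposited background-subtracted processed spot intensity values. From these intensities, log2 minus each array's 75th percentile was computed, spots of a probe were averaged, and 44257 of 56605 probes were kept after a filter on dim probes. No columns of other samples were present (0). Spots in tiles of 8 by 8 spots whose median deviated by over 0.3 log2 units from the other arrays were set missing on that array. How tiles are judged was revised after a first form, which used all spots, had been run and member results seen, and that form is an added alternative. Each gene took its brightest kept probe. R 4.3.3 and limma 3.58.1 (lmFit and eBayes, group means, all 8 arrays, 4 residual degrees of freedom) gave p-values adjusted by Benjamini-Hochberg over 19005 genes, with a threshold of 0.05, and the procedure was tested on simulated data. The precision is limited by the number of arrays.

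The members and gene lists were chosen with earlier results of these data known. Named genes were all members, every listed gene past the threshold in a comparison, and the 4 genes most alike the member with the largest spread; that a list with any gene past the threshold needed no further names was decided after results were seen. The files hold no mean signal, so the normexp alternative used median foreground and background signals. Averaging over probes was corrected after a first run to use the same probes on every array. Array column within a line did not pair samples: correlations of deviations were 0.017 in the β line and 0.045 in the δ line.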

Additional observations from a re-analysis of the deposited data

How the results depend on the processing

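Ptgs2 stayed lower in the δ line and past the threshold in all 19 alternatives of each line comparison. The number of members past the threshold was 2 with doxycycline. It became 1 with all spots kept, 1 with median centring, 1 with no filter on dim probes and 1 with the mean over probes. With quantile normalization it was 5 and with an intensity trend 4. Over all genes the count of 3659 became 2902, 2802, 2945, 3438, 4157 and 4494 in the same order of settings. Leaving out 1 array also changed the number of members for some arrays. Without doxycycline the number of members was 3, and became 1 in a fit of only the compared arrays. With median centring Pla2g4a was lost, and with the mean over probes Ptges passed as well. Over all genes the count of 2806 became 1242, 2080 and 2951 in the same order of settings. Leaving out 1 array, such as untreated δ replicate 1, also changed the number of members. With doxycycline in the δ line, leaving out 1 array gave 0 to 1, the 1 without untreated δ replicate 2, and in the β line and for the difference 0 to 0. With the array column as a replicate block, 0 members passed in the δ line, the β line and the difference, and over all genes 1, 0 and 1 did.

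Over all genes, 61 passed with doxycycline in the δ line and 362 in the β line. These became 14 and 47 with all spots kept, 38 and 117 with median centring, 84 and 587 with normexp, 766 and 65 with no filter, 98 and 729 with the filter on all arrays, 149 and 895 with an intensity trend, and 1 and 0 in fits of the compared arrays alone; leaving out 1 array gave 4 to 618 and 2 to 395. For the difference 3 passed, against 7 to 227 without 1 array, 5 with no filter, 1 with all spots kept or quantile normalization, and 0 with a trend or the filter on all arrays. Between the lines the counts were 3659 with and 2806 without doxycycline, 1242 without it in a fit of the compared arrays alone, and 1045 to 4274 and 1774 to 2744 without 1 array. Settings added after seeing the data, which left out probes missing on any array, tested 16993 and 15982 genes and gave 2 and 3 members with and without doxycycline.

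Direction turned for member values that had not passed and, of values that had, for Zfp36l1, for which another probe was then the brightest. For doxycycline in the δ line, Ptgs2 gave 0.021 (normexp), 0.016 (quantile), 0.013 (median centring), -0.11 to 0.096 without 1 array. Ptger4 gave -0.15 (mean over probes). For doxycycline in the β line, Pla2g4a gave 0.019 (normexp), 0.020 (quantile), 0.0015 (tiles judged on all spots), -0.079 to 0.064 without 1 array. Ptges gave -0.13 (mean over probes). Ptges3 gave -0.061 to 0.30 without 1 array. For the difference, Ptgs1 gave -0.13 (all spots), -0.021 to 0.15 without 1 array. Ptges gave -0.12 (all spots), -0.0029 (quantile), -0.067 to 0.79 without 1 array. Ptgds gave 0.037 (quantile), 0.038 (median centring), -0.13 to 0.10 without 1 array. Ptgis gave -0.28 to 0.014 without 1 array. Between treated lines, Ptgs1 gave 0.028 (quantile). Ptges gave 0.029 (median centring), 0.010 (probes with a missing array left out), 0.00041 (tiles judged on all spots), -0.14 to 0.046 without 1 array. Ptgis gave 0.042 (median centring), -0.13 to 0.061 without 1 array. Zfp36l1 gave -0.48 (normexp), -0.58 to 0.79 without 1 array. Between untreated lines, Ptges gave 0.067 (all spots). Ptgis gave -0.084 (normexp), -0.052 to 0.25 without 1 array. Zfp36l1 gave -0.086 (normexp), -0.13 to 0.93 without 1 array. Some of the member values also rest on other probes. The Ptges value of 0.010 between treated lines is that of its middle probe. Without untreated δ replicate 2 a dimmer Ptges probe stood for the gene. The means over probes of Ptger4 and Ptges took in dimmer probes. For the remaining changes the cause was not tested.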

Other observations

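Ptgs2 and Pla2g4a neighbour each other on mouse chromosome 1 in the RefSeq table, with 0 protein-coding genes between them, and both were lower in the δ line. This neighbourhood was looked at after their values had been seen. The 24 neighbours taken were the 12 protein-coding genes on each side of Ptgs2 in chromosome order, which include Pla2g4a, and 18 were tested. Between treated lines 2 passed (Rgs2 and Ivns1abp), where 19.3% of all genes did, and between untreated lines 4 passed (Pla2g4a, Rgs2, Ivns1abp and Prg4), where 14.8% did. Ivns1abp was lower by -0.43 with doxycycline and -0.46 without (adjusted p = 0.0293 and 0.0267). Prg4, which encodes lubricin, was lower by -0.71 without doxycycline (adjusted p = 0.0157) and gave -0.38 with it (adjusted p = 0.0508). Rgs2, a regulator of G protein signalling, was higher by 0.41 with doxycycline and 0.52 without (adjusted p = 0.0274 and 0.0132).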
